A study of Homo sapiens with 12 samples.

Results

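Cytosolic heat shock genes were examined in NCI-H295R cells, a human adrenocortical carcinoma line that secretes cortisol, after treatment with either of the cortisol biosynthesis inhibitors CJ28 and MET. They were taken by gene symbol: the transcription factor gene HSF1 and the chaperone genes HSPA8, HSPA1A, HSPA1B, HSPH1, DNAJB1, BAG3, HSP90AA1, HSP90AB1 and HSPB1, in all 10 of the 60662 genes listed. RNA-seq was performed on 12 samples, 4 each of VEH (0.1% DMSO), CJ28 (30 µM) and MET (30 µM), which were confluent cultures exposed for 24 h after 12 h without serum. CJ28 is a benzimidazolylurea, and MET is metyrapone, which inhibits the last enzymatic step of cortisol synthesis. All samples come from 1 cell line at 1 dose and 1 time point, and no heat-treated culture was included for comparison. The values are TPM, a length-corrected share of the transcripts in a sample, so that levels of different genes can be compared, while the number of reads behind a value is not given. A lower TPM cannot tell apart fewer cells that express a gene, less of its RNA per cell and more RNA of other genes.

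Adrenocortical markers were present in VEH, between 0.863 TPM for HSD3B2 and 92.6 TPM for CYP11A1 on average, and all 7 were lower in CJ28. Of 6 markers of other cell types, PTPRC, PECAM1 and TH were at or near 0, and COL1A1, ALB and CHGA had group means of 0.863 TPM or less. CHGA, the 1 marker of these tested with TPM as deposited, was at 0.538 TPM in CJ28 and 0.807 in VEH. Its limma adjusted p was 0.0277, and 0.094 after scaling as described next. With TPM recomputed over nuclear protein-coding genes 3 of the 6 were tested. Of these 1 was called higher and 1 lower in CJ28, where 8683 of 14485 genes were called. ALB was at 0.333 TPM in CJ28 and 0.168 in VEH. COL1A1 was at 0.155 TPM in CJ28, 0.65 in VEH and 0.39 in MET. The part of such cells in the results was not tested. Of total TPM, 24.6% ± 0.229 (SD, n = 4) fell to nuclear protein-coding genes in VEH samples, compared with 21.3% ± 0.0307 in CJ28 samples and 24.3% ± 0.223 in MET samples. The median log2 fold change of all 16815 genes tested was -0.13 for CJ28 against VEH. It was 0.02, over 16708 genes, after each library was divided by its median-of-ratios factor. That factor is the median ratio of the library's genes to their geometric mean over libraries, so a median near 0 follows from it. Of the genes called in this comparison, 65.1% were lower before and 47.1% after this scaling. Values after scaling are therefore given beside the main ones.

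Heat shock proteins keep other proteins folded. HSPA8 is the constitutive cytosolic HSP70, and HSPA1A and HSPA1B encode its stress-inducible form. J-domain proteins such as DNAJB1 deliver clients to HSP70 and stimulate its ATPase, HSPH1 and BAG3 release its nucleotide, and HSP90 completes the folding of selected clients, among them the glucocorticoid receptor. HSPB1 is an ATP-independent small heat shock protein that holds unfolded proteins. HSF1 is kept inactive by chaperones and, when unfolded proteins occupy them, forms trimers that bind heat shock elements, inverted repeats of GAA, in front of chaperone genes. It is controlled mainly as a protein, so its mRNA does not measure its activity.

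All 9 chaperone and co-chaperone genes were lower in CJ28 than in VEH, and HSF1 was higher. Mean TPM was 1.48-fold lower for HSP90AB1, the smallest fall, and 2.31-fold lower for HSPA8, the largest, while that of HSF1 was 1.54-fold higher. The limma fit called 10 of 10 genes at an adjusted p under 0.05, the largest p being 3.8e-04 for HSF1, where it called 57.0% of all 16815 genes. By direction, 9 of 10 were lower against 37.1% of all genes, and 1 was higher against 19.9%. In each of the 10 genes the CJ28 and VEH samples did not overlap, which held for 50.3% of all genes tested (two-sided exact permutation test, p = 0.0286 for each gene, the smallest that 4 against 4 samples allow). The median log2 fold change of the 10 genes was -0.75. After median-of-ratios scaling it was -0.60, and again 10 genes were called where 55.9% of all genes were, 9 of them lower (26.3% of all genes) and 1 higher (29.5%). MET gave no call in these genes.

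**Figure D1:**
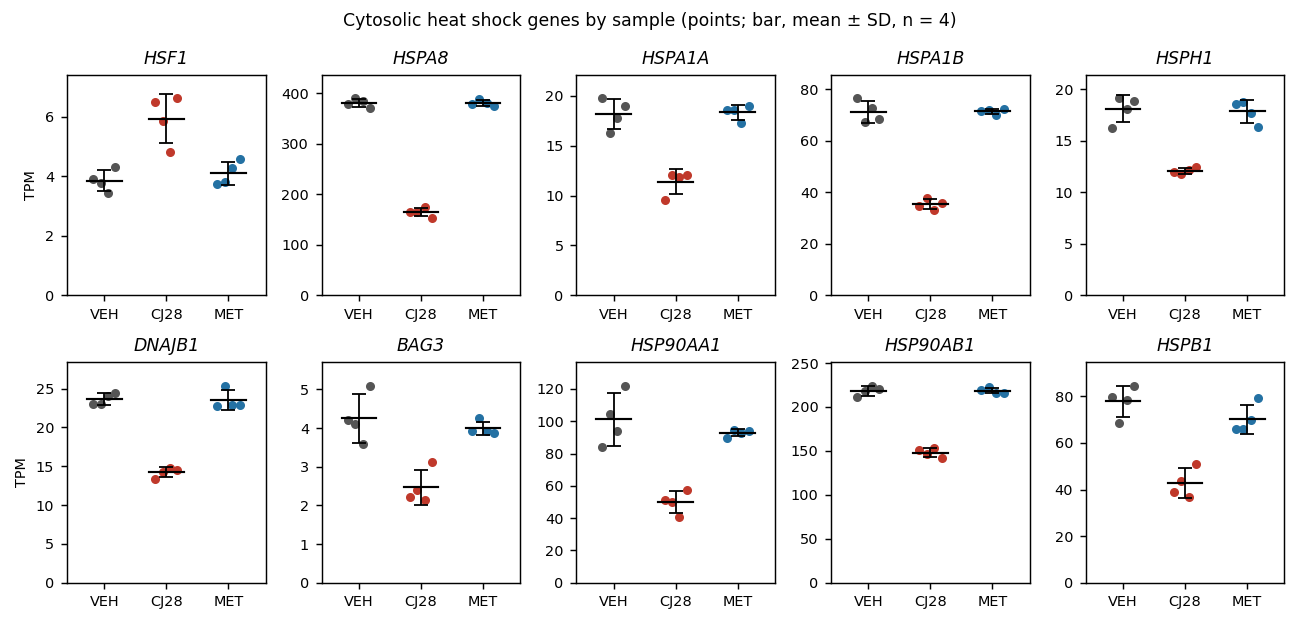
TPM of the 10 cytosolic heat shock genes in each of the 12 samples, by group (points), with the group mean and SD (bars, n = 4). The vertical axes start at 0 and differ between genes. In every panel the 4 CJ28 samples lie apart from the VEH and MET samples, above them for HSF1 and below them for the other 9 genes.

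HSF1 (ENSG00000185122.11, GRCh38 chromosome 8, 144291591 to 144314720, plus strand) was at 3.91, 3.77, 3.44 and 4.32 TPM in VEH, at 6.50, 5.85, 4.81 and 6.63 in CJ28, and at 3.76, 3.81, 4.27 and 4.58 in MET (replicates 1 to 4). The lowest CJ28 sample, replicate 3, lay above every VEH and MET sample, and the MET and VEH samples overlapped. CJ28 raised it by a log2 fold change of 0.60 (limma, SE 0.11, adjusted p = 3.8e-04), or 0.75 after scaling. The 3′ end of HSF1 overlaps DGAT1 on the opposite strand, a gene of triglyceride synthesis, whose mean was 2.84 TPM ± 0.25 (SD, n = 4) with VEH and 2.95 ± 0.243 with CJ28. The libraries were stranded, but whether strand was used in the quantification is not given in the sources used here.

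HSPA8 (ENSG00000109971.14, chromosome 11, 123057489 to 123063230, minus strand) had the highest level of the 10 genes in every group. Its TPM was 379, 391, 385 and 371 in VEH, 166, 165, 174 and 154 in CJ28, and 379, 389, 380.5 and 374 in MET. The CJ28 samples were thus far below all others, and the MET samples fell inside the range of VEH. From a VEH mean of 382 ± 8.28 TPM (SD, n = 4) to 165 ± 8.31 in CJ28 it decreased 2.31-fold, with a log2 fold change of -1.21 (limma, SE 0.035, adjusted p = 3.3e-11) and of -1.06 after scaling. Only 692 of the 16815 genes tested had a lower log2 fold change than HSPA8. Its 17 listed pseudogenes, to which reads could have been assigned, together held 1.14 to 1.89 TPM per sample.

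HSPA1A (ENSG00000204389.10, chromosome 6, 31815543 to 31817946, plus strand) and HSPA1B (ENSG00000204388.7, 31827738 to 31830254, plus strand) lie side by side and are near-identical. Of the 2301 stretches of 100 bases in the HSPA1A transcript, 72.4% also occur in that of HSPA1B, so RSEM had to divide reads between them and their single values are uncertain. Their summed TPM depends little on this division. It was 96.3, 83.6, 90.7 and 87.3 TPM in VEH, 44.4, 49.8, 45.2 and 48.0 in CJ28, and 90.2, 90.5, 87.1 and 91.3 in MET. The highest CJ28 sample, at 49.8 TPM, was thus well under the lowest of the others, at 83.6 TPM. The log2 fold change of the sum was -0.93 (limma, SE 0.047, adjusted p = 5.1e-09) for CJ28 against VEH, and -0.78 after scaling. As divided by RSEM, HSPA1B fell from 71.3 ± 4.26 to 35.4 ± 1.88 TPM and HSPA1A from 18.2 ± 1.51 to 11.4 ± 1.23 (SD, n = 4), with log2 fold changes of -1.01 and -0.67 (adjusted p = 2.3e-09 and 1.3e-05 in limma). HSPA1B is also overlapped on its own strand by the non-coding RNA gene AL671762.1, listed at 17.3 ± 1.82 TPM in VEH and 12.7 ± 1.99 in CJ28.

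The partners of HSP70 had smaller log2 fold changes than HSPA8. DNAJB1 (ENSG00000132002.8, chromosome 19, 14514769 to 14529770, minus strand) was at 23.0, 23.0, 24.1 and 24.5 TPM in VEH, 13.4, 14.3, 14.8 and 14.5 in CJ28 and 22.7, 25.4, 22.9 and 22.8 in MET. Its CJ28 samples were close together and below all others, with a log2 fold change of -0.73 (limma, SE 0.047, adjusted p = 4.6e-08) and -0.58 after scaling. DNAJB1 is overlapped on the opposite strand by TECR, at 24.5 TPM on average over the 12 samples and at most 33.6. The values of TECR by group are not given here. HSPH1 (ENSG00000120694.20, chromosome 13, 31134973 to 31162388, minus strand), the HSP110 that exchanges the nucleotide of HSP70, was at 16.2, 19.1, 18.1 and 18.9 TPM in VEH, 11.9, 11.8, 12.1 and 12.5 in CJ28 and 18.6, 18.8, 17.7 and 16.3 in MET. The CJ28 samples again formed a narrow range under the others, with a log2 fold change of -0.58 (limma, SE 0.058, adjusted p = 3.3e-06) and -0.42 after scaling. BAG3 (ENSG00000151929.9, chromosome 10, 119651370 to 119677819, plus strand), which links HSP70 to autophagy, was low throughout. It had 4.21, 4.11, 3.58 and 5.10 TPM in VEH, 2.22, 2.39, 2.15 and 3.13 in CJ28 and 3.93, 4.25, 3.92 and 3.87 in MET. Its groups came close without overlap, with replicate 4 of CJ28 at 3.13 and replicate 3 of VEH at 3.58. The log2 fold change of BAG3 was -0.76 (limma, SE 0.12, adjusted p = 1.6e-04) and -0.61 after scaling.

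Both cytosolic HSP90 genes fell. The inducible HSP90AA1 (ENSG00000080824.18, chromosome 14, 102080738 to 102139699, minus strand) was at 84.0, 104, 94.1 and 122 TPM in VEH, 51.3, 50.2, 41.0 and 57.6 in CJ28 and 89.8, 94.6, 93.0 and 94.1 in MET. VEH had the widest spread, with an SD of 16.3 TPM against 2.13 in MET, and every CJ28 sample was still below the lowest VEH sample. The log2 fold change was -1.01 (limma, SE 0.11, adjusted p = 6.5e-06) and -0.86 after scaling. WDR20 overlaps HSP90AA1 on the opposite strand at a mean of 5.98 TPM. The constitutive HSP90AB1 (ENSG00000096384.20, chromosome 6, 44246166 to 44253888, plus strand) was at 211, 219, 224 and 220.1 TPM in VEH, 151, 146, 153 and 141 in CJ28 and 219, 223, 216 and 216 in MET. The CJ28 samples lay below all others, and MET fell inside the range of VEH, with a log2 fold change of -0.56 (limma, SE 0.030, adjusted p = 9.3e-09) and -0.41 after scaling.

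HSPB1 (ENSG00000106211.9, chromosome 7, 76302673 to 76304295, plus strand) was at 79.7, 68.7, 78.5 and 84.7 TPM in VEH, 39.0, 43.8, 37.0 and 51.2 in CJ28 and 66.1, 65.9, 69.7 and 79.1 in MET. The highest CJ28 sample, replicate 4, was below the lowest of either other group, while MET lay lower than VEH with overlap. The log2 fold change of HSPB1 was -0.87 for CJ28 against VEH (limma, SE 0.098, adjusted p = 8.4e-06) and -0.72 after scaling.

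In VEH the levels ran in the order HSPA8, HSP90AB1, HSP90AA1, HSPB1, HSPA1B, DNAJB1, HSPA1A, HSPH1, BAG3 and HSF1. Neighbours whose samples overlapped were HSP90AA1 with HSPB1, HSPB1 with HSPA1B, HSPA1A with HSPH1, and BAG3 with HSF1. In CJ28 HSF1 stood above BAG3 without overlap, at 5.95 ± 0.832 and 2.47 ± 0.45 TPM (SD, n = 4). Summed over the 10 genes, TPM was 918 ± 16.9 in VEH samples, 487 ± 2.62 in CJ28 samples and 901 ± 9.67 in MET samples. HSPA8 made up 41.6% ± 1.37 of that sum in VEH, 33.9% ± 1.84 in CJ28 and 42.2% ± 0.501 in MET.

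**Figure D2:**
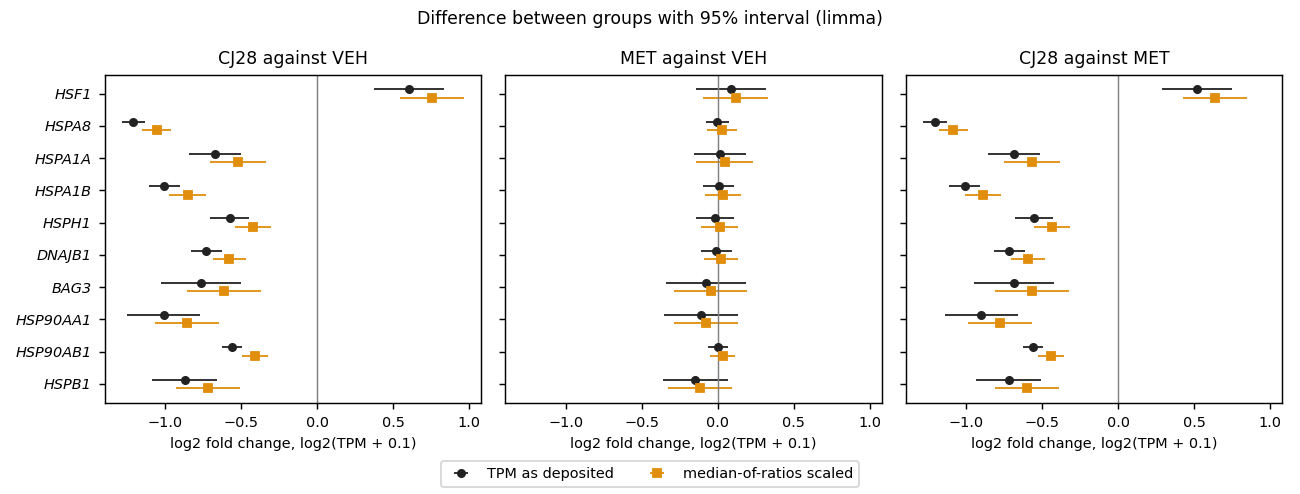
Log2 fold change on the log2(TPM + 0.1) scale (horizontal axis) with its 95% interval in limma for the 10 genes, for each of the 3 comparisons, with TPM as deposited (circles) and after median-of-ratios scaling (squares). For CJ28 against VEH and against MET, 9 genes lie below 0 and HSF1 above 0 with both, while every interval for MET against VEH spans 0.

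No cytosolic heat shock gene was called for MET against VEH. The log2 fold changes of MET against VEH ran from -0.15 for HSPB1 to 0.09 for HSF1, and the smallest adjusted p in limma was 0.944. At an adjusted p under 0.05, 0 of 10 genes were called, as were 0.00595% of all genes. At an unadjusted p under 0.05 the count was 0 of 10 as well, and 874 of all 16815 genes. After scaling there was again no call among the 10, against 0.00599% of all genes. In no gene were the MET and VEH samples apart, against 2.81% of all genes tested, and the smallest p of the exact permutation test was 0.171, for HSPB1. The precision differed between genes. For HSPA8 the 95% interval of the log2 fold change was -0.08 to 0.07, for HSP90AB1 -0.07 to 0.07 and for the sum of HSPA1A and HSPA1B -0.10 to 0.11. It was wider for HSPB1 (-0.36 to 0.06), HSP90AA1 (-0.35 to 0.13) and BAG3 (-0.34 to 0.19), so smaller changes of these genes were not detectable here.

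At the equal dose of 30 µM these genes also differed between the inhibitors. The limma fit called 9 genes lower and 1 higher in CJ28 than in MET, where it called 55.5% of all genes (34.6% lower and 20.9% higher). After scaling the members' counts were equal, where 55.0% of all genes were called (26.1% lower and 28.9% higher). The log2 fold changes reached -1.21 for HSPA8 and 0.52 for HSF1, and the largest adjusted p was 0.00122. The 10 genes were also without overlap, as were 50.2% of all genes. This comparison uses the same CJ28 samples as that against VEH and is not independent of it.

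Since TPM is a share, ratios between members within a library were compared as well, because these do not depend on what other transcripts hold. None of the 18 tests passed the adjusted threshold. To pass it, most of the 18 would have to reach 0.0286, the smallest p of the exact permutation test here. This count therefore does not show that the ratios were equal. The ratio of HSPH1 to HSPA8 was 0.0429, 0.0490, 0.0470 and 0.0509 in VEH and 0.0719, 0.0715, 0.0695 and 0.0809 in CJ28, a log2 difference of 0.63. That of DNAJB1 to HSPA8 was 0.0620 ± 0.00301 (SD, n = 4) and 0.0864 ± 0.00557, a log2 difference of 0.48, and that of HSPA1A and HSPA1B together to HSPA8 was 0.235 ± 0.0164 and 0.285 ± 0.0255, a log2 difference of 0.28. In these 3 ratios the CJ28 samples lay above all VEH samples (two-sided exact permutation test, p = 0.0286 each, the smallest possible, and 0.0571 after Benjamini-Hochberg adjustment over the 18 tests). The ratios of BAG3 and of HSPB1 to HSPA8 had log2 differences of 0.42 and 0.34 with overlapping samples (exact permutation test, p = 0.0857 and 0.0571). Without replicate 4 of CJ28 these differences were 0.27 and 0.21. The ratio of HSP90AA1 to HSP90AB1 was 0.463 ± 0.0703 in VEH and 0.340 ± 0.0571 in CJ28, with overlap (exact permutation test, p = 0.0571). Between CJ28 and MET all 6 ratios were without overlap (exact permutation test, p = 0.0286, adjusted 0.0571). For MET against VEH the smallest p among the 6 ratios was 0.229 in the same exact test.

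**Figure D3:**
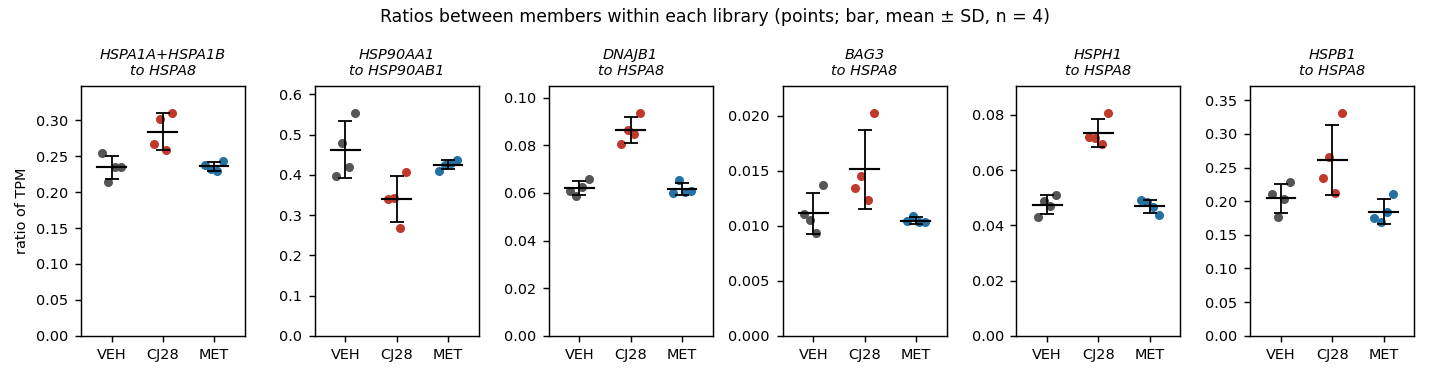
Ratio of TPM between members in each of the 12 libraries (points), with the group mean and SD (bars, n = 4). The vertical axes start at 0 and differ between ratios. The ratios of HSPH1 and DNAJB1 to HSPA8 are higher in all 4 CJ28 samples than in any VEH or MET sample, and the ratio of HSP90AA1 to HSP90AB1 overlaps between CJ28 and VEH.

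The start regions of the genes that fell together were searched for the letters of the heat shock element. RefSeq (GRCh38.p14) gave 14 windows of 250 bases before to 50 bases after a start site for 9 of the 10 genes, and none was read for HSF1. GAANNTTC occurred in 8 of the 14 windows and in 7 of the 9 genes, against 6.77% of 35116 windows of all genes. Of the 14 windows, TTCNNGAA was found in 1 window of each of 3 genes, HSPA8, HSP90AA1 and HSP90AB1, against 7.74% of all windows. GAANNTTC and TTCNNGAA read the same on both strands. In these 3 genes both also occurred joined as a heat shock element of 3 units, in which they share the GAA, searched on both strands and found in 0.49% of all windows. The windows of HSPH1 and BAG3 held none of these letters. The stretches around the matches are shown 5′ to 3′ on the strand of the gene, with the matched letters in capitals, to show the letters that 7 of the genes have in this region. The genes were chosen as heat shock genes, a class known by this element, so the matches are not independent of that choice. For HSPA8, where this part of the window overlaps an annotated exon, 30 bases around the match nearest to the start site are given.
HSPA8 (chr11:123062170-123062199, minus strand): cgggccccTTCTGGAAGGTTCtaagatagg
HSP90AA1 (chr14:102087065-102087172, minus strand): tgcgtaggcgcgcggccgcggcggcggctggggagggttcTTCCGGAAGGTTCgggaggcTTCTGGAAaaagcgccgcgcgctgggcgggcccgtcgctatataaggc
HSP90AB1 (chr6:44247738-44247865, plus strand): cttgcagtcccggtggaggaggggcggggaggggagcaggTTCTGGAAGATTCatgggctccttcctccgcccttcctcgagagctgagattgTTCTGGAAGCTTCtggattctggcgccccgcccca
HSPA1A (chr6:31815397-31815484, plus strand): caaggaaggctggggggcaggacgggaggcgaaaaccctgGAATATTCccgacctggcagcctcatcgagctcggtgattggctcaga
HSPA1B (chr6:31827593-31827680, plus strand): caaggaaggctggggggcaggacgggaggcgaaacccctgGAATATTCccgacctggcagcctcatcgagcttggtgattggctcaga
DNAJB1 (chr19:14518408-14518514, minus strand): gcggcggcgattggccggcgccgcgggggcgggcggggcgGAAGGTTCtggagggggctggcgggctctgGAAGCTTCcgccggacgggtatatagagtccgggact
HSPB1 (chr7:76302451-76302538, plus strand): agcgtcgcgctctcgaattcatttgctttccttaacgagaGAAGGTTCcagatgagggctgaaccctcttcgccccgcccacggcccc

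The stretches of HSPA1A and HSPA1B differ at 2 of 88 bases. Counted from the start site, the first match shown lies at -106 in HSPA1A, -105 in HSPA1B, -88 in HSP90AA1 and -55 in HSPA8. The window of HSPA8 and the HSP90AB1 window with start site 44247943 each hold 2 elements of 3 units. The HSP90AB1 windows with start sites 44246194 and 44247101 hold 0. Which start site these cells use was not examined, and a relation of the elements to the changes was not tested. A match is a description of the sequence and no binding was measured.

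The other genes of the cytosolic chaperone system were both higher and lower in CJ28, and their difference from the members was not tested. Of 60 genes in 7 lists, 52 were tested, of which 26 were lower and 9 higher at an adjusted p under 0.05 in limma, against the 37.1% and 19.9% of all genes given above. After median-of-ratios scaling these counts were 19 and 14 of 51. With TPM recomputed over nuclear protein-coding genes they were 19 and 23 of 57, so that the larger share changed direction. It did so among all genes too, from 6231 lower and 3346 higher of 16815 to 3575 and 5108 of 14485. The members stayed at 9 lower and 1 higher. Among the other cytosolic HSP70 and HSP110 genes 3 of 6 tested were lower and none higher (1 higher after scaling), with a median log2 fold change of -0.42. With nuclear protein-coding TPM 3 of 7 were lower and 3 higher. HSPA2 and HSPA12A, further members of the HSP70 family, had log2 fold changes of -0.74 and -0.77 (adjusted p = 8.2e-07 and 1.4e-06 in limma), and HSPA14, a ribosome-associated HSP70, one of -0.48. Of the J-domain genes 4 of 10 were higher and 4 lower. DNAJA1, which serves HSPA8, and DNAJB6, which holds back aggregation, fell with log2 fold changes of -0.67 and -0.52, and DNAJB2 rose with 0.69. The median of this list was -0.03, and 0.17 after scaling, where 5 of 9 were higher and 2 lower. With nuclear protein-coding TPM 6 of 10 were higher and 2 lower, with a median of 0.18.

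HSP90 co-chaperones included 6 lower and 1 higher gene of 11 tested, and 5 and 2 after scaling. With nuclear protein-coding TPM these counts were 5 and 4. FKBP5, an immunophilin of the glucocorticoid receptor complex that glucocorticoids induce, fell from 2.95 ± 0.515 to 1.44 ± 0.187 TPM (log2 fold change -0.98, limma adjusted p = 2.6e-05). STIP1, which joins HSP70 to HSP90, fell from 121 ± 2.21 to 83.8 ± 5.89 TPM, and the phosphatase gene PPP5C from 40.7 ± 2.89 to 27.5 ± 1.48. Of the HSP70 co-chaperones 2 of 7 tested were higher and 1 lower, with a median of -0.00. After scaling 3 were higher and none lower, with a median of 0.15, and with nuclear protein-coding TPM 5 of 8 were higher and none lower. BAG1, another nucleotide exchange factor, rose with a log2 fold change of 0.56 and the ubiquitin ligase gene STUB1 with 0.12, whereas BAG5 fell with -0.26 (limma adjusted p = 4.3e-04) and was not called after scaling (-0.11, adjusted p = 0.0975). The TRiC chaperonin, a ring that folds actin and tubulin, had 6 of 8 subunit genes lower and none higher, led by CCT3, CCT2 and TCP1 with log2 fold changes of -0.42, -0.36 and -0.35. After scaling 5 were lower and 1 higher, and with nuclear protein-coding TPM 4 and 2. Prefoldin, which hands clients to it, had 4 of 6 lower and 1 higher, among them VBP1 and PFDN5 with -0.48 and -0.34 and PFDN2 with 0.29, against 2 lower and 1 higher after scaling. Of 9 other small heat shock genes 4 were expressed enough to be tested (0.5 TPM or more in 4 samples). HSPB8, the partner of BAG3, and HSPB11, also a subunit of ciliary transport, fell with log2 fold changes of -0.70 and -0.76, and HSPB7 rose from 7.26 ± 0.313 to 18.5 ± 2.41 TPM (log2 fold change 1.33, limma adjusted p = 3.8e-08).

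**Figure D4:**
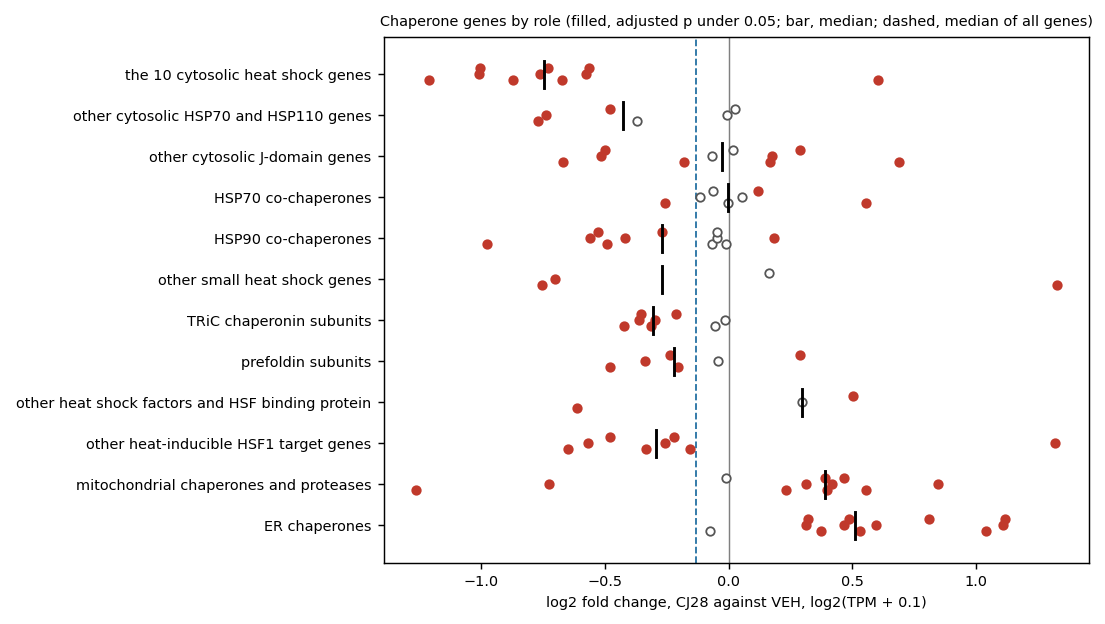
Log2 fold change of CJ28 against VEH on the log2(TPM + 0.1) scale (horizontal axis) for the tested genes of the members and of each other chaperone or heat shock list (points, filled where the adjusted p in limma was under 0.05), with the median of the list (bars) and of all 16815 genes (dashed line at -0.13). Among the lists plotted, the cytosolic heat shock genes have the lowest median, -0.75, and the ER chaperones the highest, 0.51.

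Regulators and further heat-inducible genes were read the same way. HSF2, a second heat shock factor, rose from 13.04 ± 1.11 to 18.5 ± 1.1 TPM (log2 fold change 0.50, limma adjusted p = 5.5e-05), and HSBP1, whose product binds HSF1 and limits it, fell from 60.6 ± 1.91 to 39.6 ± 2.39 (-0.61, adjusted p = 1.8e-07). HSF4, the remaining gene of this list, had a log2 fold change of 0.30 (limma adjusted p = 0.104). After scaling all 3 genes of the list were called, where 55.9% of all genes were, 2 higher and 1 lower, with a median of 0.44. Of 8 other heat-inducible targets of HSF1, 7 were lower and 1 higher, against 37.1% and 19.9% of all genes. Their median log2 fold change was -0.29. After scaling 5 were lower and 1 higher, against 26.3% and 29.5% of all genes. With nuclear protein-coding TPM 3 were lower and 1 higher, where 3575 and 5108 of all 14485 genes were. The polyubiquitin gene UBB fell from 261 ± 4.18 to 176 ± 7.15 TPM and IER5, a feedback regulator of HSF1, from 1.51 ± 0.065 to 0.930 ± 0.0716. ZFAND2A, an arsenite-inducible proteasome partner, moved the other way, from 5.56 ± 0.32 to 14.0 ± 0.409 TPM (log2 fold change 1.32, limma adjusted p = 5.9e-09). HSPA6, a strictly inducible HSP70 gene named here after its values were seen, lay under the filter. It was at 0.04 to 0.11 TPM in VEH and 0.05 to 0.10 in MET, and at 0.35 to 0.53 in CJ28, where all 4 samples were higher.

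Chaperones of other compartments are given beside the cytosolic ones with their own values, and the difference between the lists was not tested. Of 12 genes of ER chaperones and their partners 11 were higher in CJ28 and none lower, against 19.9% and 37.1% of all genes. Their median log2 fold change was 0.51, and after scaling 11 were again higher, against 29.5% of all genes. HSPA5, the HSP70 of the ER, rose from 35.0 ± 7.88 to 76.1 ± 15.8 TPM, HYOU1, its HSP110, from 34.1 ± 0.465 to 73.8 ± 1.02, and DNAJB9, a J-domain partner, from 9.96 ± 0.538 to 20.6 ± 0.957. In mitochondria 8 of 11 genes were higher and 2 lower, against the same 19.9% and 37.1%. The counts were equal after scaling, against 29.5% and 26.3% of all genes. The 2 lower ones were the chaperonin genes HSPE1, from 429 ± 10.3 to 179 ± 7.81 TPM (log2 fold change -1.26, limma adjusted p = 1.4e-11), and HSPD1, from 639 ± 13.9 to 386 ± 13.2 (-0.73, adjusted p = 5.7e-09). The protease gene LONP1 of the same compartment rose from 24.1 ± 1.05 to 43.4 ± 2.43 TPM. For MET against VEH none of these genes, cytosolic, ER or mitochondrial, had an adjusted p under 0.05 in limma. Against MET, CJ28 gave 27 lower and 9 higher of the 52 cytosolic genes, where 34.6% and 20.9% of all genes were called in these directions. These counts were 21 and 12 of 51 after scaling. With nuclear protein-coding TPM they were 20 and 23 of 57, where the larger share was again the higher one. Among all 14485 genes tested there, 3427 were lower and 5266 higher. In the ER list 11 genes were higher in CJ28 than in MET. Among the cytosolic genes DNAJB5, a J-domain gene, was higher in CJ28 than in MET by a log2 fold change of 0.45.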

How the data were processed

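The authors trimmed reads from stranded, rRNA-depleted libraries with Cutadapt (version 2.8), mapped them to GRCh38 with STAR (version 2.7.10b) and quantified genes with RSEM (version 1.3.3). The deposited values are TPM to 2 decimals, which give no depth, so no counting error or count model was used. Groups were taken from the sample titles. The design text calls the 4 samples per group biological replicates, and whether they came from separate cultures is not stated, so p-values measure the spread between these samples. No samples were identical.

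In R (4.3.3), limma (3.58.1; lmFit, eBayes with trend) was applied to log2(TPM + 0.1) of the 16815 genes that reached 0.5 TPM in 4 or more samples, all 12 samples in one fit without covariates, with two-sided p-values adjusted by Benjamini-Hochberg over all genes. All 10 members passed this filter. The procedure was tested on simulated data. Fold changes on this scale understate low genes. Exact permutation tests, of mean TPM or mean log2 ratio, ran in Python 3.11.15 (numpy 2.4.6, pandas 2.3.3), and figures were drawn with matplotlib 3.10.9. Where a symbol had several gene IDs (HSPA14), the longer gene was used. Transcripts of HSPA1A and HSPA1B came from GENCODE.

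The members, gene lists, ratios and rules were chosen with earlier results of these data known. Named genes are the members and, per list and comparison, up to 3 genes with the largest log2 fold change among those with an adjusted p under 0.05 and a mean TPM of at least 1. Alternatives were pseudocounts of 1 and 0.01, no filter, a minimum mean of 1 TPM, median-of-ratios scaling, TPM recomputed over nuclear protein-coding genes, fits of each pair of groups alone, a replicate block, and leaving out each sample. For ratios they were ratios of group means and a pseudocount of 0.1. Sums with listed pseudogenes were added after values had been seen.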

Additional observations from a re-analysis of the deposited data

Results flagged for a closer look

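In 51 groups of 4 samples, 1 for each member, the HSPA1 sum or ratio in each treatment, the gap of the most distant sample to its nearest neighbour was set against the range of the group. It exceeded Dixon's 95% critical value in 4 groups, where chance gives about 1 in 20. HSPA1A in CJ28 had a gap of 0.909 of its range, with replicate 1 at 9.55 TPM and the others at 11.9 to 12.1. HSPA1B in that sample, at 34.8 TPM, lay inside the range of its group. DNAJB1 in MET had a gap of 0.914, with replicate 2 at 25.4 TPM and the others at 22.7 to 22.9. BAG3 in MET had one of 0.842, with replicate 2 at 4.25 TPM and the others at 3.87 to 3.93, and the ratio of BAG3 to HSPA8 in MET one of 0.887. Without these samples the calls of HSPA1A, DNAJB1 and BAG3 were as with them.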

How the results depend on the processing

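In both comparisons of CJ28, all 10 members kept their direction and their limma call under each alternative, including each sample left out, and none was called for MET against VEH. With all samples kept, the log2 fold change of HSPA8 for CJ28 against VEH ran from -1.21 to -1.005, that of HSP90AB1 from -0.56 to -0.36 and that of HSF1 from 0.51 to 0.82. With a sample left out these ranges were -1.24 to -1.18, -0.58 to -0.54 and 0.55 to 0.70. Median-of-ratios scaling and nuclear protein-coding TPM moved every member upward. Genes called for MET against VEH were 1 of all genes, 0 with a pseudocount of 1 or 0.01 or a mean TPM of at least 1, 5 without a filter, 2 with nuclear protein-coding TPM or only the groups compared, and 0 to 2 with a sample left out (874 had an unadjusted p under 0.05). Small MET changes turned sign. With scaling HSPA8 was 0.028 (0.011 with nuclear protein-coding TPM), DNAJB1 0.020 (0.0031) and HSPH1 0.012. With a sample left out the range was -0.038 to 0.055 for HSPA1A, -0.022 to 0.040 for HSPA1B, -0.025 to 0.043 for their sum, -0.016 to 0.0079 for HSPA8, -0.070 to 0.023 for HSPH1, -0.016 to 0.014 for HSP90AB1, -0.049 to 0.0056 for DNAJB1 and -0.155 to 0.012 for BAG3. The cause was not tested. With the replicate number as a block, 9546 genes were called for CJ28 against VEH, among them 10 members, and no call of a member changed. Samples of equal number did not deviate together (correlations of 0.004 to 0.039 for CJ28 and VEH), so the numbers were not taken as pairs. Ratios moved by less than the spread between samples, but without replicate 4 of CJ28 the log2 differences from VEH fell to 0.27 for BAG3 to HSPA8 and 0.21 for HSPB1 to HSPA8, over 1.5 times smaller. TPM keeps no depth, which limits BAG3 and HSF1, the lowest members.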

Other observations

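Within the groups some members were highest or lowest in the same numbered library. How often this holds among all genes was not counted, so a pattern by library number is not shown. HSF1 was highest in replicate 4 of each group, at 4.32, 6.63 and 4.58 TPM in the order VEH, CJ28 and MET. HSPB1 was also highest there, at 84.7, 51.2 and 79.1 TPM. HSPA8 was lowest there, at 371, 154 and 374 TPM. HSP90AA1 and BAG3 were highest in replicate 4 of VEH and of CJ28 but not of MET. The other 7 members of the 10 had no library number that was highest or lowest in all 3 groups, and the labels do not say that equal numbers share a culture.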
